A study of Mus musculus with 8 samples.

Results

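5 genes of the interferon regulatory factor family, Irf1, Irf2, Irf3, Irf5 and Irf8, were followed in mouse T helper cells of the Th1 and Th17 subsets with and without Tet2. They were the genes whose probe sets carried exactly 1 of these symbols in the platform annotation. Where a gene had more than 1 such probe set, the one with the highest mean over all arrays was taken. All 5 genes were found, of 19938 genes measured in all. Messenger RNA was read on 8 Affymetrix whole-transcript arrays, 2 for each of 4 groups, and the titles call the 2 arrays biological replicates. The wild-type groups are Th1 and Th17 cells from Tet2(f/f) mice, which carry loxP-flanked Tet2 alleles without Cre. The Tet2-deficient groups are Th1 and Th17 cells from CD2(Cre)Tet2(f/f) mice, in which Cre is driven by CD2, a gene of lymphocytes, so the floxed alleles are shared by all 4 groups. Age, sex, how many mice gave each array and the culture conditions of the subsets are not given in the sources used here.

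Interferon regulatory factors are transcription factors that share an amino-terminal DNA-binding domain and bind interferon-stimulated response elements in the promoters of immune genes. Interferon-gamma, the hallmark cytokine of Th1 cells, signals through the kinases JAK1 and JAK2, is known to induce Irf1 and Irf8, and acts on genes through promoter elements called gamma-activated sites. IRF1 activates antigen processing genes and Il12rb1, a receptor gene needed for Th1 responses, and IRF8 is known for its role in dendritic cells, monocytes and B cells and for restraining Th17 differentiation in T cells. IRF2 binds the same elements as IRF1 and is classically its antagonist. IRF3 and IRF5 are latent factors that are switched on by phosphorylation after innate sensing, so their mRNA level need not follow their activity. Tet2, which encodes a dioxygenase that starts the removal of DNA methylation, is the gene whose part in subset differentiation the series asks about.

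The median log2 signal over all genes was 6.53 to 6.61 on every array, and replicate arrays of a group correlated across genes at 0.990 to 0.994. Most subset markers followed the subset labels. All 7 measured T cell markers lay above the array median on every array, and 4 of 4 measured Th17 markers (Il17a, Il17f, Il23r and Ccr6) were called higher in Th17 cells of either genotype. Of 5 Th1 markers, Tbx21, Ifng and Il12rb2 were called lower in Th17 cells of either genotype. The other Th1 markers, Cxcr3 (log2 fold change -0.18 in either genotype) and Stat4 (-0.10 in wild-type, 0.26 in Tet2-deficient cells), were not called. The Tet2 probe set read 7.98 to 8.14 on the Th1 arrays and 8.34 to 8.51 on the Th17 arrays over both genotypes, and where its probes lie relative to the deleted part was not analysed here, so it checks nothing about the deletion. The Th17 arrays differed in the sex of their RNA: Xist, the female-specific transcript, read 5.15 and 10.1 on the wild-type and 8.60 and 11.3 on the Tet2-deficient Th17 arrays, against 4.80 to 5.07 on the Th1 arrays. Eif2s3y, a gene of the Y chromosome, read 9.65 and 8.46 on the wild-type and 9.36 and 4.33 on the Tet2-deficient Th17 arrays, replicate 1 first. So wild-type Th17 replicate 2 and Tet2-deficient Th17 replicate 1 held RNA of both sexes, and how many mice gave it was not tested. Results that compare Th17 arrays were therefore also fitted with the female share of the RNA as a covariate. This share, set to 0% on the lowest and 100% on the highest array, was at most 0.24% on the Th1 arrays. It was 0.32% and 43.0% on the wild-type and 14.8% and 100% on the Tet2-deficient Th17 arrays. The covariate thus partly follows the subset and, within Th17 cells, the genotype. A call can therefore end through lost precision without a smaller log2 fold change.

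Irf8 and Irf1, the members known to be induced by interferon-gamma, were lower in Th17 than in Th1 cells, and this held in wild-type and in Tet2-deficient cells. Irf8 was 3.99-fold and 4.01-fold lower in the 2 genotypes, and Irf1 2.09-fold and 3.41-fold lower. Irf2, Irf3 and Irf5 did not pass the test between subsets.

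The log2 signal of Irf8 (probe set 10576034, gene ID 15900, chromosome 8, 120736358 to 120756694 in GRCm38.p6) was 10.8 and 11.2 on the wild-type Th1 arrays and 11.5 and 10.9 on the Tet2-deficient Th1 arrays. It was 8.88 and 9.10 on the wild-type Th17 arrays and 9.31 and 9.04 on the Tet2-deficient Th17 arrays. Every Th1 array lay above every Th17 array, and within each subset the arrays of the 2 genotypes overlapped. Irf8 was 3.99-fold lower in wild-type Th17 than in wild-type Th1 cells, a log2 fold change of -2.00 ± 0.19 (SE, n = 2 and 2, 95% interval -2.41 to -1.58, limma adjusted p = 4.4e-05). In Tet2-deficient cells it was 4.01-fold lower, at -2.00 ± 0.19 (SE, n = 2 and 2, 95% interval -2.42 to -1.59, limma adjusted p = 3.8e-05). These 2 comparisons share no array, only the estimate of the spread. Ordered by mean, the groups ran from Tet2-deficient Th1 (11.18 ± 0.39, SD, n = 2) and wild-type Th1 (10.99 ± 0.28) to Tet2-deficient Th17 (9.18 ± 0.19) and wild-type Th17 (8.99 ± 0.16), and neighbours of the same subset did not differ beyond their spread. Adjusted for the female share, the Irf8 log2 fold change between subsets was -1.97 in wild-type cells and -1.92 without Tet2, and both calls held.

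The log2 signal of Irf1 (probe set 10376060, gene ID 16362, chromosome 11, 53770014 to 53778374 in GRCm38.p6) was 9.26 and 8.83 on the wild-type Th1 arrays and 9.62 and 9.64 on the Tet2-deficient Th1 arrays. It was 7.66 and 8.30 on the wild-type Th17 arrays and 7.95 and 7.77 on the Tet2-deficient Th17 arrays. Again every Th1 array lay above every Th17 array, and the wild-type Th17 arrays were the least alike. Irf1 was 2.09-fold lower in wild-type Th17 than in wild-type Th1 cells, a log2 fold change of -1.06 ± 0.19 (SE, n = 2 and 2, 95% interval -1.48 to -0.65, limma adjusted p = 0.00497). In Tet2-deficient cells it was 3.41-fold lower, at -1.77 ± 0.19 (SE, n = 2 and 2, 95% interval -2.19 to -1.35, limma adjusted p = 0.000108). With an array left out the Irf1 change ran from -1.38 to -0.75 in wild-type and from -1.86 to -1.68 in Tet2-deficient cells. The means ran from Tet2-deficient Th1 (9.63 ± 0.02, SD, n = 2) over wild-type Th1 (9.04 ± 0.30) and wild-type Th17 (7.98 ± 0.45) to Tet2-deficient Th17 cells (7.86 ± 0.13), and only the step from wild-type Th1 to wild-type Th17 passed the test between neighbours. A second Irf1 probe set, 10385870, annotated with a single sequence record, read 6.28 to 6.54 and lay below the array median on all 8 arrays. Its log2 fold change between subsets was 0.07 ± 0.10 in wild-type cells and -0.17 ± 0.10 without Tet2, neither called. Averaging both probe sets therefore reduced the Irf1 change to -0.50 in wild-type (limma adjusted p = 0.0454) and -0.97 in Tet2-deficient cells (limma adjusted p = 0.000850), both still called.

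**Figure D1:**
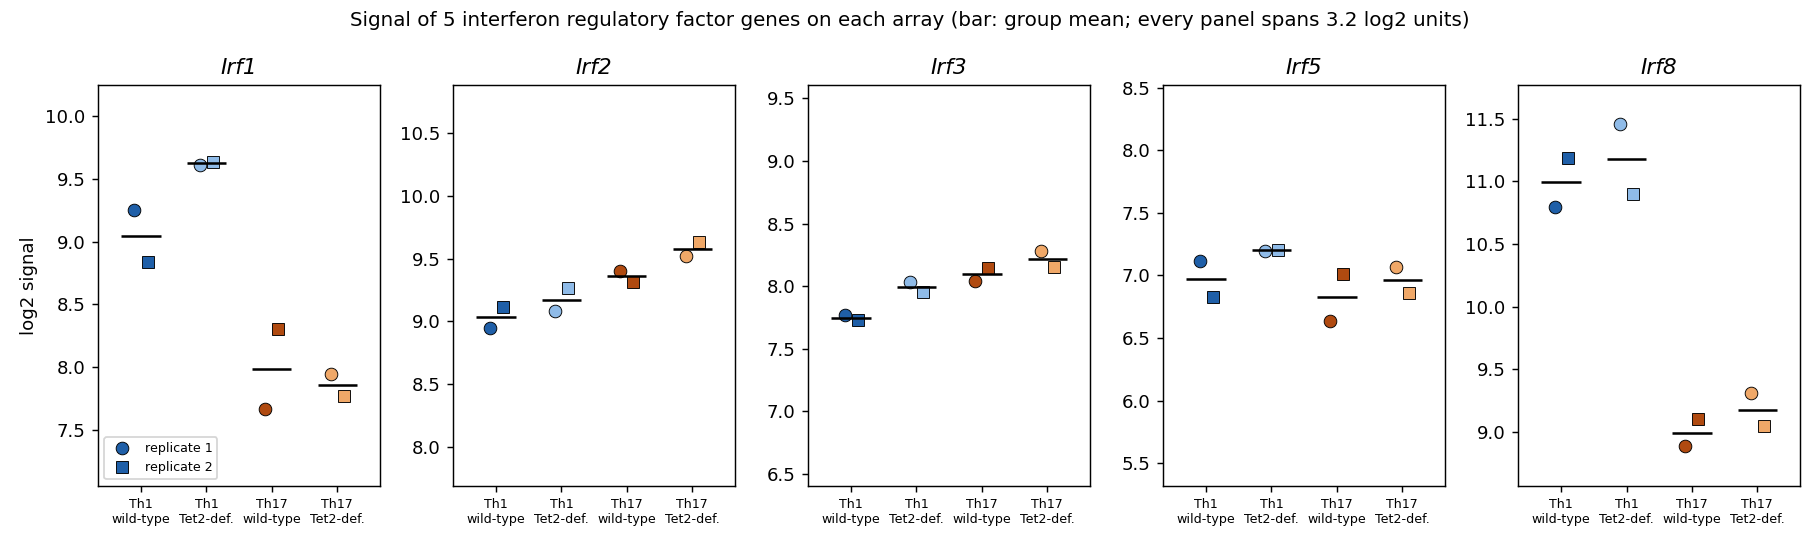
Log2 signal (vertical axis) of Irf1, Irf2, Irf3, Irf5 and Irf8 on each of the 8 arrays, by group (horizontal axis). Circles are replicate 1, squares replicate 2 and bars the mean of 2 arrays, and every panel spans the same number of log2 units around its own centre. For Irf1 and Irf8 each Th1 array lies above each Th17 array, while Irf2, Irf3 and Irf5 stay within a narrow band.

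Both calls among the 5 members were for lower signal in Th17 cells, 2 of 5 in wild-type and 2 of 5 in Tet2-deficient cells. Over all genes limma called 8.4% in the wild-type comparison, 4.97% higher and 3.44% lower in Th17 cells, and 10.1% in the Tet2-deficient comparison, 6.32% higher and 3.79% lower (adjusted p under 0.05). By overlap of arrays alone, 4 of 5 members were separate in wild-type, Irf2 and Irf3 higher and Irf1 and Irf8 lower in Th17 cells, where 52.2% of all genes were separate, 23.8% higher and 28.4% lower. In Tet2-deficient cells 5 of 5 members were separate, with Irf5 also lower, where 57.5% of all genes were, 25.8% higher and 31.7% lower. The members' median log2 fold change was -0.15 in wild-type cells and -0.24 without Tet2, beside -0.03 over all genes in either genotype. Because these are bulk arrays, fewer cells that express a gene and less of its RNA per cell cannot be told apart.

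Irf2, which encodes the antagonist of IRF1, had the opposite direction to Irf1 between subsets, though its difference was called in neither genotype. The log2 signal of Irf2 (probe set 10571705, gene ID 16363, chromosome 8, 46739745 to 46847458 in GRCm38.p6) was 8.94 and 9.12 on wild-type Th1 arrays and 9.08 and 9.27 on Tet2-deficient Th1 arrays. Wild-type Th17 arrays read 9.40 and 9.32 and Tet2-deficient Th17 arrays 9.52 and 9.63. All 4 Th17 arrays lay above all 4 Th1 arrays. The log2 fold change from Th1 to Th17 was 0.33 ± 0.13 in wild-type (SE, n = 2 and 2, limma adjusted p = 0.129) and 0.40 ± 0.13 in Tet2-deficient cells (limma adjusted p = 0.0630), neither called. Under 5 of 18 alternative settings the difference in Tet2-deficient cells was called, with the lowest limma adjusted p, 0.0348, after centring each array.

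Irf3, the factor that TBK1 phosphorylates after sensing of nucleic acids, lay in the same order as Irf2. Its log2 signal (probe set 10552812, gene ID 54131, chromosome 7, 44997648 to 45002848 in GRCm38.p6) was 7.77 and 7.73 on wild-type Th1 arrays and 8.03 and 7.95 on Tet2-deficient Th1 arrays. Wild-type Th17 arrays read 8.05 and 8.15 and Tet2-deficient Th17 arrays 8.28 and 8.16. Wild-type Th1 cells had the lowest values, and the Th17 arrays lay above the Th1 arrays of either genotype by a small margin. The log2 fold change was 0.35 ± 0.11 in wild-type (SE, n = 2 and 2, 95% interval 0.10 to 0.59, limma adjusted p = 0.0820) and 0.23 ± 0.11 in Tet2-deficient cells (limma adjusted p = 0.242), neither called.

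Irf5, which acts downstream of MyD88 and is best known from macrophages and B cells, was at 6.64 to 7.20 over all 8 arrays. This is little above the array medians of 6.53 to 6.61, and whether it reflects expression was not tested. The log2 signal of Irf5 (probe set 10536898, gene ID 27056, chromosome 6, 29526130 to 29541869 in GRCm38.p6) was 7.12 and 6.83 on wild-type Th1 arrays and 7.20 and 7.20 on Tet2-deficient Th1 arrays. Wild-type Th17 arrays read 6.64 and 7.02 and Tet2-deficient Th17 arrays 7.07 and 6.86. The wild-type arrays of the subsets overlapped, and the Tet2-deficient ones did not. The log2 fold change was -0.15 ± 0.15 in wild-type (SE, n = 2 and 2, 95% interval -0.47 to 0.17, limma adjusted p = 0.582) and -0.24 ± 0.15 in Tet2-deficient cells (95% interval -0.56 to 0.08, limma adjusted p = 0.350).

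**Figure D2:**
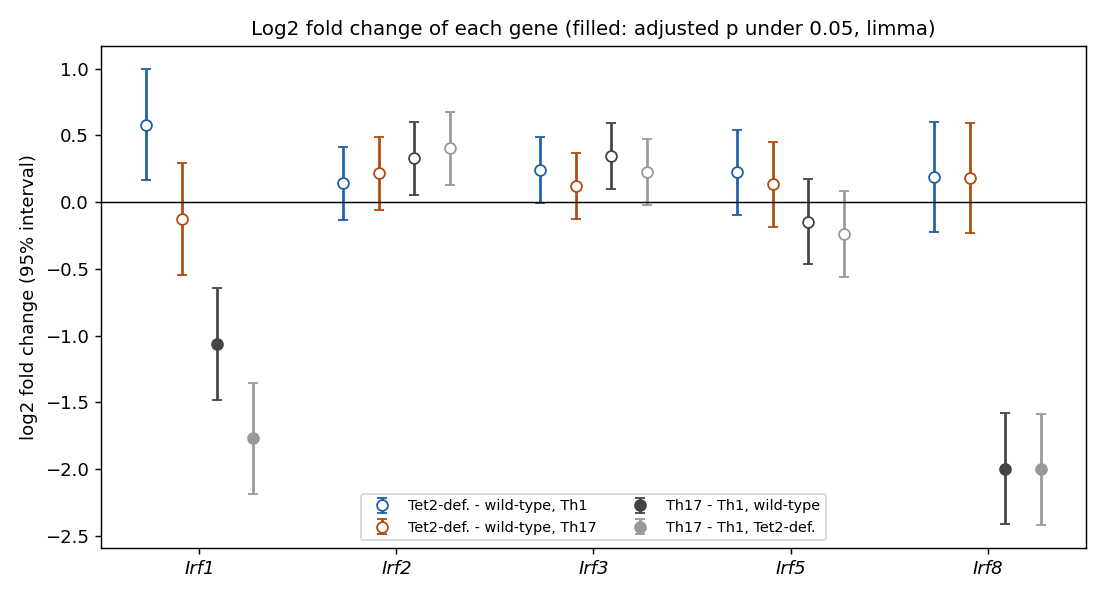
Log2 fold change (vertical axis) of the 5 genes in 4 comparisons, with 95% intervals from limma that are not adjusted for the number of genes. Filled points have an adjusted p under 0.05, which only Irf1 and Irf8 reach, both between subsets and neither between genotypes.

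Since Irf1 and Irf8 moved together between subsets and Irf2 did not move with them, their promoters are set side by side. Each line holds the 250 bases before the annotated start site, 5′ to 3′, from RefSeq in build GRCm38.p6, on the plus strand. The windows are chr11:53769764-53770013 for Irf1, chr8:120736108-120736357 for Irf8 and chr8:46739495-46739744 for Irf2. Capitals mark matches to the gamma-activated site TTCNNNGAA, which reads the same on both strands, or to the core of the interferon-stimulated response element, taken as 2 copies of GAAA with 2 bases between them and searched on both strands.
Irf1: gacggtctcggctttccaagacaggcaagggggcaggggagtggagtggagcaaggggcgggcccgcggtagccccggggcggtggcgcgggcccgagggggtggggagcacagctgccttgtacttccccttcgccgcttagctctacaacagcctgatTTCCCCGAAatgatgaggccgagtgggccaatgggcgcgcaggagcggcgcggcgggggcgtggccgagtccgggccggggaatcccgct
Irf8: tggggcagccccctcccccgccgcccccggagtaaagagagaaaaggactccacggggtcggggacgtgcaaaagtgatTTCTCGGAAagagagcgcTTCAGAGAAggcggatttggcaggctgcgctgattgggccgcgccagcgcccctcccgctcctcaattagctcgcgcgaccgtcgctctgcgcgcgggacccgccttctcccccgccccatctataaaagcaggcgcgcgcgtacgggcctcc
Irf2: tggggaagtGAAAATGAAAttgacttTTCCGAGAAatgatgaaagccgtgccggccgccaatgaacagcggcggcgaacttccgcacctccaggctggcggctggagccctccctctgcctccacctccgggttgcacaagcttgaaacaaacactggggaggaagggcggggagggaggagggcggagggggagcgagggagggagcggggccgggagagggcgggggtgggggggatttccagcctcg

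The Irf1 window held 1 gamma-activated site match, TTCCCCGAA, at bases -90 to -82 from the start site. The Irf8 window held 2, TTCTCGGAA at -171 to -163 and TTCAGAGAA at -153 to -145. The Irf2 window held 1, TTCCGAGAA at -224 to -216, and also a response element match, GAAAATGAAA at -241 to -232, which did not overlap it. No match to either motif lay in the windows of Irf3 and Irf5. Of 32851 windows of the same length in the RefSeq table, 7.02% held a gamma-activated site match, 2.98% a response element match and 0.332% both. So a gamma-activated site match was present before the genes that were lower in Th17 cells and also before Irf2, which was not. These are matches of letters in 1 window per gene, and Irf1 and Irf8 each have a further start site in the table that was not used.

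All 5 windows held more CpG, the dinucleotide at which DNA is methylated and TET enzymes act, than the median window. They held 25 (Irf1), 17 (Irf2), 16 (Irf3), 25 (Irf5) and 29 CpG (Irf8), against a median of 6 over all windows. In the same order these counts lay at percentiles 89.3, 76.5, 74.6, 89.3 and 93.2 of all windows, so those of Irf2 and Irf3 were not unusual. For Irf5 the window precedes a start site inside the annotated gene. The match in Irf1, the first match in Irf8 and the gamma-activated site match in Irf2 each contain a CpG. DNA methylation was not measured on these arrays.

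**Figure D3:**
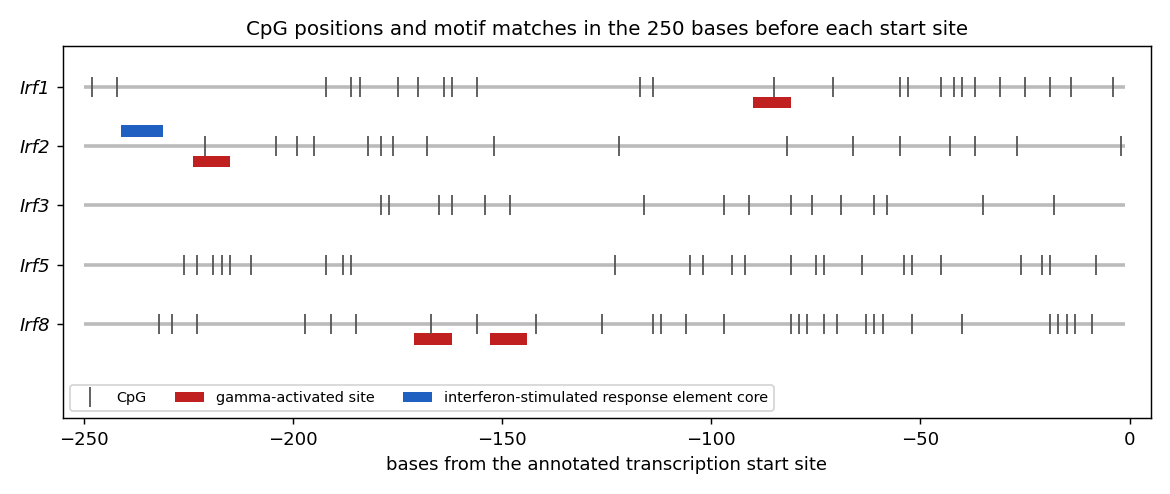
Position in bases from the annotated start site (horizontal axis) of CpG (ticks) and motif matches (bars: red for the gamma-activated site, blue for the response element core) in the 250 bases before Irf1, Irf2, Irf3, Irf5 and Irf8. Irf1, Irf2 and Irf8 hold red bars, only Irf2 holds a blue bar, and every gene holds at least 16 CpG.

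Loss of Tet2 gave no called change in any member. In Th1 cells 0 of 5 members passed, where limma called 0.00502% of all genes, 1 gene, Ifng, and 1206 genes had an unadjusted p under 0.05. All 5 members had a log2 fold change above 0, with a median of 0.23 beside 0.01 over all genes, and the arrays of 3 of the 5 did not overlap, each higher in Tet2-deficient cells. Over all genes 33.3% did not overlap in this comparison, 19.6% higher and 13.7% lower.

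Irf1 had the largest difference between genotypes. In Th1 cells both Tet2-deficient arrays (9.62 and 9.64) lay above both wild-type arrays (9.26 and 8.83). The log2 fold change was 0.58 ± 0.19 (SE, n = 2 and 2, 95% interval 0.16 to 0.9999), and it did not pass (limma adjusted p = 0.797). Without wild-type Th1 replicate 2 it was 0.37, and with the mean of both Irf1 probe sets 0.36. In the same cells Ifng, the cytokine gene upstream of Irf1, was called lower, at -1.39 ± 0.14 (limma adjusted p = 0.00438). That call was lost when wild-type Th1 replicate 2 was left out (-1.24, limma adjusted p = 0.0790), when Tet2-deficient Th1 replicate 2 was (-1.26, limma adjusted p = 0.141) and when only the 4 Th1 arrays were fitted (limma adjusted p = 0.151).

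The other members differed less in Th1 cells. Irf3 had a log2 fold change of 0.24 ± 0.11 (SE, n = 2 and 2, limma adjusted p = 0.829) and Irf5 of 0.23 ± 0.15 (limma adjusted p = 0.856), both without overlap of arrays. Irf8 had 0.19 ± 0.19 (95% interval -0.23 to 0.60, limma adjusted p = 0.918) and Irf2 0.14 ± 0.13 (limma adjusted p = 0.905), with overlapping arrays. The direction of Irf8 turned without wild-type Th1 replicate 1 (-0.011) or Tet2-deficient Th1 replicate 1 (-0.090). With an array left out Irf5 ran from 0.081 to 0.37 and Irf2 from 0.050 to 0.24.

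In Th17 cells limma called 0 of 5 members and 0% of all genes, and 824 genes had an unadjusted p under 0.05. Irf2 had the largest difference, 0.22 ± 0.13 (SE, n = 2 and 2, 95% interval -0.06 to 0.49, limma adjusted p = 0.99996), with both Tet2-deficient arrays above both wild-type arrays. Irf8 had 0.18 ± 0.19, Irf5 0.13 ± 0.15 and Irf3 0.12 ± 0.11, none passing. With an array left out these ran from 0.050 to 0.31 for Irf8, from -0.054 to 0.32 for Irf5 and from 0.060 to 0.19 for Irf3. Irf1 had -0.13 ± 0.19 (95% interval -0.54 to 0.29), and without wild-type Th17 replicate 2 this became 0.19. The female share of the RNA also differed between these genotypes, and with it as a covariate no member was called. Alternatives other than leaving out an array gave Irf1 -0.17 to -0.11, Irf2 0.20 to 0.22 and Irf3 0.11 to 0.15. Under the same, Irf5 was at 0.13 to 0.14 and Irf8 at 0.18 to 0.23. The arrays of 2 of the 5 members, Irf2 and Irf3, did not overlap, both higher in Tet2-deficient cells, where 32.9% of all genes did not overlap, 18.8% higher and 14.1% lower.

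The difference between the Tet2 effects in the 2 subsets was tested directly, and 0 of 5 members passed, with 0% of all genes called by limma and 894 genes at an unadjusted p under 0.05. For Irf1 the effect in Th17 cells minus that in Th1 cells was -0.71 ± 0.27 (SE, 95% interval -1.30 to -0.12, limma adjusted p = 0.999). Averaging both Irf1 probe sets gave -0.48, and leaving out wild-type Th17 replicate 1 or 2 gave -1.03 or -0.39. The same number is the difference between the subset changes of Irf1 in the 2 genotypes, so the larger step in Tet2-deficient cells did not pass a test of its own. For Irf8 the difference was -0.0056 ± 0.27 (95% interval -0.59 to 0.58), for Irf2 0.07 ± 0.18, for Irf3 -0.12 ± 0.16 and for Irf5 -0.09 ± 0.21, none passing.

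Of 25 measured target genes that IRF1 and IRF8 are known to bind or activate, 12 were called lower in Th17 cells with Tet2 and 16 in those without, and none was called higher. Over all genes 3.44% and 3.79% were called lower. The 12 were among the 16, and 2 of the 25 lay above 0 in wild-type cells and 5 without Tet2. Ciita, Il15, Casp1, Ifit2, Ifit3 and Il12b lay below the array median on all 8 arrays, and of these Casp1 was called lower in either genotype. The median log2 fold change was -0.53 in wild-type cells and -0.68 without Tet2, beside -0.03 over all genes in either genotype. The guanylate-binding protein genes Gbp4 (-2.18 ± 0.14 in wild-type, -2.46 ± 0.14 in Tet2-deficient cells) and Gbp7 (-1.36 ± 0.16, -1.82 ± 0.16) and the immunity-related GTPase gene Irgm1 (-1.35 ± 0.14, -1.498 ± 0.14) act in defence within cells. The antigen processing genes Tap1, which encodes a peptide transporter subunit, had -1.41 ± 0.14 and -1.52 ± 0.14, and Psmb9, an immunoproteasome subunit gene, -1.29 ± 0.12 and -1.32 ± 0.12. The receptor gene Il12rb1 was called lower only in Tet2-deficient cells (-0.59 ± 0.14, limma adjusted p = 0.0228, against -0.20 ± 0.14 in wild-type), and the difference between the 2 was not called. Its call ended when any 1 of the 4 Tet2-deficient arrays was left out (limma adjusted p between 0.0505 and 0.193) and when adjusted for the female share (0.216). With that covariate the Il12rb1 log2 fold change was -0.53. Socs1, a feedback inhibitor that is also an IRF1 target, was at 0.52 ± 0.17 and 0.12 ± 0.17, neither called. Adjusted for the female share, 11 were called lower in wild-type and 11 in Tet2-deficient cells. Without wild-type Th17 replicate 1, 9 were called in wild-type, and without Tet2-deficient Th17 replicate 1, 11 in Tet2-deficient cells. With loss of Tet2, 0 of the 25 were called in either subset, with medians of 0.11 in Th1 and -0.05 in Th17 cells beside 0.01 over all genes in both.

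**Figure D4:**
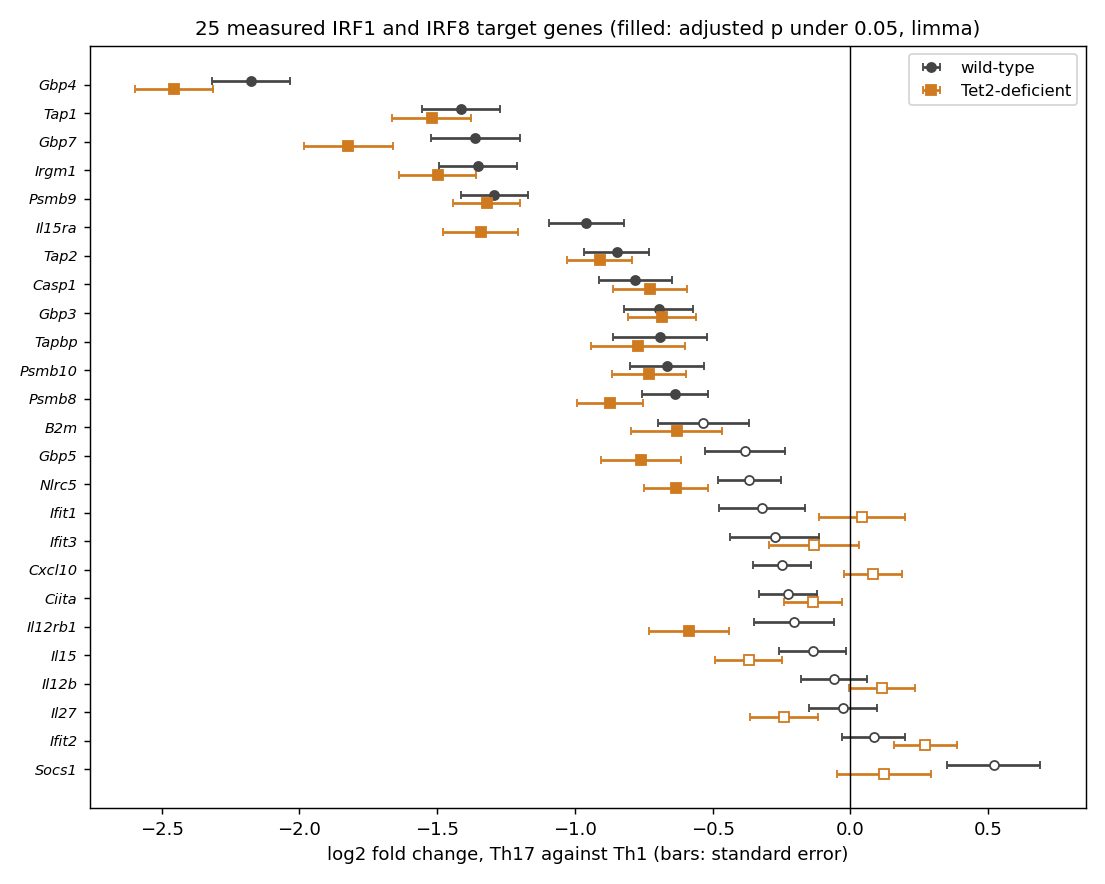
Log2 fold change of Th17 against Th1 cells (horizontal axis, bars are standard errors) for the 25 measured target genes of IRF1 and IRF8, with wild-type as circles and Tet2-deficient as squares. Filled symbols have an adjusted p under 0.05, 12 circles and 16 squares, all to the left of 0, with Gbp4 farthest left in either genotype.

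Genes upstream of Irf1 and Irf8 did not all move one way. Of 14 measured interferon, receptor, signalling and inhibitor genes, 2 were called higher and 3 lower in Th17 cells, the same 5 in both genotypes, where 8.4% of all genes were called in wild-type cells and 10.1% without Tet2. Ifng read 10.2 to 11.8 on the Th1 arrays and 5.92 to 6.03, below the array median, on the Th17 arrays. Its fitted log2 fold change, whose size is limited by the low end of the signal, was -5.69 ± 0.14 in wild-type cells and -4.35 ± 0.14 without Tet2, and that of Usp18, an interferon-induced inhibitor of the type I receptor, -2.199 ± 0.11 and -1.18 ± 0.11. Ptpn6, a phosphatase gene, had -0.46 ± 0.13 and -0.56 ± 0.13. On the other side Ifngr2, which encodes the signalling chain of the interferon-gamma receptor, rose by 1.28 ± 0.14 and 1.35 ± 0.14, and the kinase gene Jak1 by 0.50 ± 0.13 and 0.74 ± 0.13. The list had a median of 0.13 in wild-type cells and 0.21 without Tet2. Adjusted for the female share, the calls of Jak1 and Ptpn6 ended in wild-type (limma adjusted p = 0.0804 and 0.0895) and in Tet2-deficient cells (0.0587 and 0.115). In wild-type cells the call of Jak1 held under 10 of 18 alternatives and that of Ptpn6 under 6. It ended for both with the replicate block (limma adjusted p = 0.0616 for Jak1 and 0.0749 for Ptpn6) and on the groups compared alone (0.0845 and 0.106), and for Ptpn6 also with centring (0.0706) and with all probe sets (0.0517). With an array left out the highest limma adjusted p was 0.249 for either gene, without wild-type Th17 replicate 2 for Jak1 and without replicate 1 for Ptpn6. In Tet2-deficient cells Jak1 lost its call without Th17 replicate 1 (limma adjusted p = 0.0531) and Ptpn6 without any 1 of the 4 arrays (0.0621 to 0.111). With loss of Tet2, Ifng in Th1 cells was the only gene of the list called. Ifngr1 in Th17 cells (0.46 ± 0.13, limma adjusted p = 0.779) and Usp18 in Th1 (-0.47 ± 0.11, limma adjusted p = 0.797) and Th17 cells (0.54 ± 0.11, limma adjusted p = 0.546) did not pass.

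Among 14 measured adaptor and kinase genes upstream of Irf3 and Irf5, 2 were called higher and 1 lower in Th17 cells of the wild type, and 3 higher and 1 lower in those without Tet2, beside 8.4% and 10.1% of all genes called in either direction. Ikbke, which encodes a kinase of IRF3, was higher (0.57 ± 0.12 in wild-type, 0.57 ± 0.12 in Tet2-deficient cells), as was Nlrc3 (1.02 ± 0.14, 0.97 ± 0.14), a regulator of innate signalling. The RNA sensor gene Ifih1 was lower (-1.01 ± 0.14, -0.94 ± 0.14), and the RNA sensor gene Ddx58 was called higher in Tet2-deficient cells (0.68 ± 0.14). The Ikbke call ended without wild-type Th17 replicate 2 (limma adjusted p = 0.0942) in wild-type. In Tet2-deficient cells it ended without either Th1 replicate (0.0549 and 0.0667), without Th17 replicate 1 (0.146) and when adjusted for the female share (0.0561). The Ddx58 call ended with that covariate (limma adjusted p = 0.194), without Tet2-deficient Th1 replicate 2 (0.0890) and without Tet2-deficient Th17 replicate 2 (0.106). With the female share as covariate the log2 fold change in Tet2-deficient cells was 0.67 for Ikbke and 0.48 for Ddx58. The kinase gene Tbk1 and the adaptor gene Myd88 were not called in either genotype.

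Of 11 measured partners and co-regulators of the family, 3 were called in each genotype, beside 8.4% of all genes in wild-type cells and 10.1% without Tet2. The transcription factor genes Ikzf3 (1.68 ± 0.15 in wild-type, 1.39 ± 0.15 in Tet2-deficient cells) and Ets1 (0.99 ± 0.13, 0.68 ± 0.13) were higher in Th17 cells, and Batf3 (-0.78 ± 0.12, -0.46 ± 0.12), which encodes a partner of IRF8 in dendritic cells, was lower. In Tet2-deficient cells the Batf3 call ended with centring (limma adjusted p = 0.0590). In the same cells, adjusting for the female share ended the calls of Batf3 (-0.44, limma adjusted p = 0.207) and Ets1 (0.71, 0.0715). They also ended without Tet2-deficient Th1 replicate 1 (0.0522 and 0.0556) and without Tet2-deficient Th17 replicate 1 (0.0989 and 0.0917), and Batf3 without replicate 2 of either group (0.188 and 0.177). Spi1, which encodes PU.1, the partner of IRF8 in myeloid and B cells, lay below the array median on all 8 arrays. With loss of Tet2 none of the 11 was called, and Irf2bp2, which encodes a corepressor that binds IRF2, had 0.51 ± 0.15 in Th1 cells (limma adjusted p = 0.797).

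Of the other family members, 3 were measured. Irf4, a factor needed for Th17 differentiation, read 11.3 to 11.5 on all 8 arrays, with log2 fold changes between -0.12 and 0.10 in the comparisons of subsets and genotypes. Irf7, an amplifier of type I interferon, read 6.19 to 6.93, and its largest difference was 0.42 ± 0.16 with loss of Tet2 in Th17 cells (SE, n = 2 and 2, limma adjusted p = 0.99996). Its signal lay above the array median on only 4 of the 8 arrays, and both wild-type Th17 arrays (6.27 and 6.19) lay below it. Irf9, a factor of the type I interferon response, was called lower in wild-type Th17 than Th1 cells (-0.47 ± 0.13, limma adjusted p = 0.0496) but not in Tet2-deficient cells (-0.31 ± 0.13, limma adjusted p = 0.168). That call sat at the threshold and held under 7 of 18 alternatives, with adjusted p from 0.0273 to 0.182.

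Because Irf5 and Irf8 are strong in other blood cells, markers of such cells were read on the same arrays. Of 13 myeloid and dendritic cell markers, among them Lyz2, Csf1r, Itgam and Itgax, 0 lay above the array median on any array. Their summed linear signal was 628 and 689.6 on wild-type Th1 arrays and 688.4 and 690.4 on Tet2-deficient Th1 arrays. The Th17 arrays gave 571 and 605.4 for wild-type and 597 and 600.4 for Tet2-deficient cells. It was thus slightly lower in Th17 cells, as Irf8 was, and 1 of the 13, Mpeg1, was called lower (-0.72 ± 0.16 in wild-type, -1.07 ± 0.16 in Tet2-deficient cells). Of 7 B cell markers 0 were called, and 0 to 3 lay above the array median on an array. From Th1 to Th17 cells all 7 had a log2 fold change below 0 in wild-type, with a median of -0.14. Without Tet2 4 lay below 0 and 3 above, with a median of -0.01. The B cell marker sums, 427.5 to 485.7 in Th1 and 415.6 to 462.1 in Th17 cells, overlapped. Of 6 markers of CD8 T cells and natural killer cells, 1 was called lower in Th17 cells, Eomes (-1.33 ± 0.13, -1.40 ± 0.13), and their sums were 527.5 to 559.1 in Th1 and 321.7 to 341.7 in Th17 cells. Eomes, a T-box factor gene that activated T helper cells can also express, made up most of that step: without it the other 5 summed to 221.6 to 258.1 in Th1 and 204.2 to 220.6 in Th17 cells. What part other cells have in the Irf8 difference was not tested.

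The genes whose signal was most like each member over the 8 arrays were ranked by Pearson correlation among 9594 genes at or above the median level. For Irf8 they were the class I gene H2-Q4 (0.996), the nucleoside transporter gene Slc29a3 (0.991) and the kinase gene Sik1 (0.991). For Irf1 they were the magnesium transporter gene Slc41a1 (0.990), Enc1 (0.983) and the chemokine receptor gene Ccr7 (0.983). For Irf2 they were Usp45 (0.978), Plekhm3 (0.968) and Trib2 (0.963), for Irf3 Ehmt2 (0.986), P2rx4 (0.985) and Mpzl1 (0.982), and for Irf5 Fbxo6 (0.981), Tcf3 (0.963) and Stoml1 (0.963). No member was among the 3 closest genes of another. The arrays fall into 2 subsets, so these values mostly follow the subset difference where there is one, and they describe these 8 arrays only.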

How the data were processed

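RNA of 8 mouse T helper cell samples in 4 groups of 2 was measured on Affymetrix arrays. The deposited values are log2 probe-set signals, and the authors used GCOS, RMA and Affymetrix Expression Console per the submitters' processing notes, with versions and options not given in the sources used here. They were used without further scaling. RMA makes arrays comparable and shrinks small signals, and arrays have no counting depth, so their number limits the precision.

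Probe sets were named by the platform annotation of 2016. Of 35556 probe sets, 21789 carried 1 symbol, 21698 of these matched a RefSeq gene by gene ID, 1621 carried several symbols and 12146 had none here. The highest mean probe set per gene left 19938 genes, with no filter on low signal.

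Genes were fitted with limma 3.58.1 in R 4.3.3 (lmFit on 4 group means, eBayes with trend, two-sided, Benjamini-Hochberg over all genes, called under 0.05) in 5 contrasts, after a check on simulated data. The 95% intervals are not adjusted. P-values measure the spread between these arrays, and separate mice are not stated beyond the word biological in the titles. The titles do not say that replicate numbers pair arrays, and arrays were not treated as paired. Same-numbered deviations correlated at -0.19 to 0.06 between groups, which shows no large shared effect but cannot tell whether same-numbered arrays share an origin.

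The members and gene lists were chosen with earlier results of these data known. All members are named. Of each list the text names called genes and those of largest change. Tbk1, Myd88, Spi1, Socs1, Il12rb1 and Psmb9 were named after their values were seen. The genes most alike were the 3 of highest correlation per member, predicted genes left out. List genes without a probe set of 1 symbol were not used here. Alternatives tried were quantile normalization again, centring, a replicate block, a fit on only the groups compared, a filter on low values, all probe sets, the mean of probe sets, eBayes without trend, robust eBayes, a covariate for the female share of RNA from linear Xist signal, and leaving out each array. The alternatives for list genes and the marker sum without Eomes were added after seeing the data.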

Additional observations from a re-analysis of the deposited data

Results flagged for a closer look

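Usp18, the interferon-induced inhibitor gene, differed in opposite directions with loss of Tet2 in the 2 subsets, with no overlap of arrays in either. The Th1 arrays read 8.81 and 8.94 for wild-type and 8.39 and 8.40 for Tet2-deficient cells. The Th17 arrays read 6.64 and 6.71 for wild-type and 7.26 and 7.17 for Tet2-deficient cells. The effect in Th17 cells minus that in Th1 cells was 1.02 ± 0.16 (SE), which did not pass over all genes (limma adjusted p = 0.202). The RNA sensor gene Ddx58 showed the same pattern, with 7.86 and 7.70 against 7.62 and 7.34 in Th1 cells and 7.78 and 7.88 against 7.998 and 8.32 in Th17 cells, wild-type first. Its difference of effects was 0.625 ± 0.20 (SE, limma adjusted p = 0.999). The female share of the RNA also differed between genotypes, at 0.32% and 43.0% on the wild-type and 14.8% and 100% on the Tet2-deficient Th17 arrays. Alternatives other than leaving out an array gave a Th17 effect of 0.20 to 0.34 for Ddx58 and 0.52 to 0.56 for Usp18. Of all 19938 genes, 989 (4.96%) had opposite directions without overlap, so the pattern by itself is common with 2 arrays a group. No member of the 5 showed it.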

How the results depend on the processing

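The calls of Irf1 and Irf8 between subsets held under all 18 alternatives in either genotype, and no member was called with loss of Tet2 under any. Of 445 refits of the members, 423 kept direction and side of the threshold and 17, none of them of a called value, changed sign. The Irf8 difference of effects (-0.0056) turned to 0.073 with quantile normalization, 0.010 with centring and 0.045 with the female share. The Irf7 subset difference in Tet2-deficient cells (-0.03) turned to 0.0031, 0.026 and 0.00085 under the same 3. With an array left out, signs turned in these ranges: Irf8 -0.090 to 0.46 and Irf7 -0.15 to 0.36 and Irf9 -0.098 to 0.24 for Tet2 loss in Th1 cells, and Irf1 -0.44 to 0.19 and Irf5 -0.054 to 0.32 in Th17 cells. For the difference of effects they were Irf8 -0.28 to 0.27, Irf2 -0.019 to 0.17, Irf5 -0.28 to 0.097 and Irf9 -0.012 to 0.32. For the subsets they were Irf5 -0.34 to 0.040 in wild-type and Irf7 -0.28 to 0.23 in Tet2-deficient cells. The Irf2 subset difference in Tet2-deficient cells was newly called with centring (0.46), with the filter on low values and without trend (0.40 both), and without either wild-type Th1 replicate.

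Genes called over the whole array moved more. For Tet2 loss, 1 gene in Th1 cells became 0 on the Th1 arrays alone and 0 to 2 with an array left out, and 0 genes in Th17 cells became 1 with the filter, 2 with robust eBayes and 0 to 4 with an array left out. The difference of effects gave 0 to 4 with an array left out. The 1675 genes between wild-type subsets became 1101 in a fit on those groups alone and 663 to 1551 with an array left out. The 2015 in Tet2-deficient cells became 726 with the female share and 801 to 2335 with an array left out. The cause was not tested. The replicate block called 1398 and 1767 genes between subsets, 2 members in each, and changed no call of a member. For the 53 called values of list genes, the call ended in 86 of 952 refits.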

Other observations

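IRF1 and IRF2 compete for the same elements, so the change of Irf1 relative to Irf2 was also computed within arrays, where a scaling of the whole array cancels. From Th1 to Th17 cells the log2 difference of Irf1 minus Irf2 changed by -1.39 in wild-type and by -2.17 in Tet2-deficient cells. With loss of Tet2 it changed by 0.44 in Th1 and by -0.34 in Th17 cells. These are differences between the changes given above, described without a test, and say nothing about protein levels.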
